A study of Mus musculus with 7 samples.

Results

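Transcripts of 6 membrane proteins of the lens were followed in laser-captured lens epithelium: the connexins Gja1 and Gja3, the aquaporins Mip, Aqp1 and Aqp5, and the tetraspan protein Lim2. They were chosen by gene symbol, and every probe set to which the platform annotation gives one of these symbols alone was taken, which made 13 of 45037 probe sets and 6 of 18193 genes. The KO lenses were SPARC-null and the WT lenses wild-type, from mice of a single litter on a C57Bl/6 background, 28 days old, untreated. KO animal 1 gave lenses 1L and 1R, KO animals 4 and 7 gave 4L and 7L, and WT animals 2, 5 and 6 gave 2L, 5L and 6L. KO animal 7 was labelled male and all others female. Each lens had its own array, and 1L and 1R were averaged before any test, so that n = 3 animals in each group. The brightest of 3 Sparc probe sets had signals of 8.14 to 70.5 in the KO lenses, against 27370.5 to 49971.5 in the WT lenses, and a second was likewise at 5.36 to 52.0 in the KO lenses, against 22967.7 to 27204.4 in the WT lenses. The third was weak and did not pass, with 85.0 to 128.9 in the KO lenses, against 9.25 to 118.3 in the WT lenses. The first pair fits the labels, although no source used here says which exons were deleted, so whether the probes lie in them was not checked.

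The lens has no blood vessels, and its cells pass water, ions and metabolites to one another through gap junctions and water channels. Gja1 (Cx43) is the main connexin of the epithelium, and Gja3 (Cx46) couples the fibre cells. Aqp1 is the water channel of the epithelium, Mip (aquaporin 0) is a water channel and adhesion protein and the most abundant membrane protein of the fibres, and Aqp5 is found in both. Lim2 (MP20) is a fibre membrane protein related to Pmp22 and the claudins. SPARC is a matricellular protein that binds collagen IV, a component of the lens capsule, and mice that lack it develop cataract.

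Promoter windows are shown for the fibre genes Mip and Lim2 and for the epithelial gene Gja1, chosen after their values were seen. Each runs from 250 bases before the annotated start to 50 bases after it, on the plus strand of GRCm38.p6, from RefSeq. The coordinates are chr10:128225560-128225859 for Mip, chr7:43429849-43430148 for Lim2 and chr10:56377050-56377349 for Gja1. Capitals mark the letters TGCTGA on either strand, the core of the sites bound by MAF transcription factors, which act in the lens.
Mip: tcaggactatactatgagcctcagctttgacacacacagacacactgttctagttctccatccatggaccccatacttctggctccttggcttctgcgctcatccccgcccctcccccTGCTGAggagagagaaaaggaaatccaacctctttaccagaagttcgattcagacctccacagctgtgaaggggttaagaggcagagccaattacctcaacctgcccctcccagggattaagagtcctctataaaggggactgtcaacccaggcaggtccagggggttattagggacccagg
Lim2: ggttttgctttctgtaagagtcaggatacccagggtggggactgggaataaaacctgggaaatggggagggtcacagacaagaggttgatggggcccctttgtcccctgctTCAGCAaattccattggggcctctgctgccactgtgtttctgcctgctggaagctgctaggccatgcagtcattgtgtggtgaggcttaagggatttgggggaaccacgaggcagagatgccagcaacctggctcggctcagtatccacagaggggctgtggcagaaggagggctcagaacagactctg
Gja1: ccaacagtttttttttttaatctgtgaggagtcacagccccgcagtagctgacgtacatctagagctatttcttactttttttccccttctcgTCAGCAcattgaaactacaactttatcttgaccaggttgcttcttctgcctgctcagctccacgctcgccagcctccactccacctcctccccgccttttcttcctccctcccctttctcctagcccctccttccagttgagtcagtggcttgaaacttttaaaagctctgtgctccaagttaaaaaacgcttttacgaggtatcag

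The marked letters began at position -132 in Mip, -139 in Lim2 and -157 in Gja1, counted from the start. These were 3 of the 6 genes, where 19.5% of 32851 windows of the same length held the letters. TGANTCA, an AP-1 site, was found on either strand of the Gja1 window alone among the 6 genes, at -19, and in 7.81% of all windows. TATAAA, searched on either strand, was found at -3 in Mip and at -163 in one of the 2 windows of Gja3 (13.6% of all windows). In Gja3 it stood only as the reverse complement, TTTATA. The GC box GGGCGG, also searched on either strand, was found in Mip, Gja3, Aqp1 and Aqp5 (35.7%), and the heat shock factor letters TTCNNGAA in 0 of the 7 windows (8.52%). A match describes letters and is not a binding site.

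None of the 6 genes passed the test between KO and WT epithelium. With limma, 0 of the 13 probe sets reached an adjusted p under 0.05, where 0.00666% of all probe sets did. Without adjustment 0 of 13 had a limma p under 0.05 (4.06% of all probe sets). On the normalized values, the KO and WT lenses stood fully apart at 0 of 13 (5.33% of all probe sets). The limma adjusted p was 0.99988 at each. At their brightest probe sets, 5 genes had lower and 1 had higher values in KO, and their median was -0.14 on the log2 scale. Over all genes, 54.4% were lower in KO and the median was -0.03. The intervals given for each gene say which sizes of difference these arrays leave possible. In bulk tissue, fewer cells of a type and less RNA per cell cannot be told apart.

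**Figure D1:**
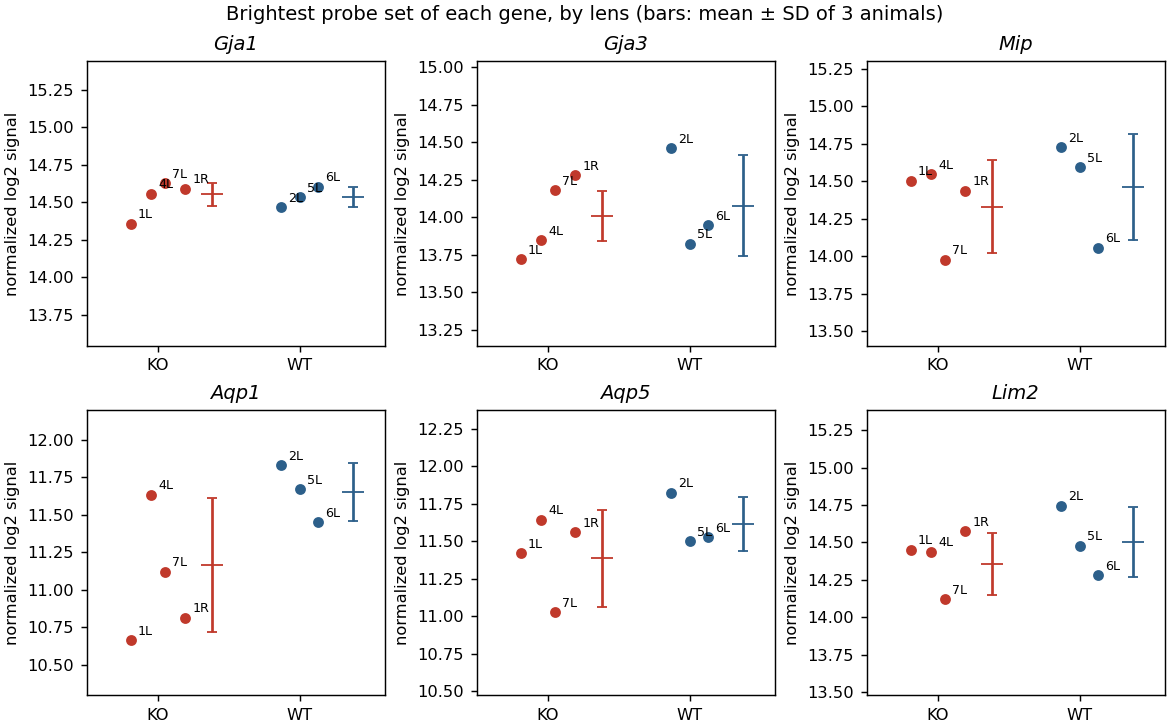
Quantile normalized log2 signal of the brightest probe set of each gene in 4 KO lenses and 3 WT lenses, with the mean ± SD of 3 animals beside each group. The groups overlap in every panel; for Aqp1, KO lens 4L lies among the WT lenses while 1L, 1R and 7L lie below them.

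Aqp1, the epithelial water channel, had the smallest unadjusted p of the 13 probe sets. Its probe set 1416203_at had signals of 1565.8, 1772.2, 3170.4 and 2245.4 in KO lenses 1L, 1R, 4L and 7L, against 3548.5, 3298.7 and 2821.3 in WT lenses 2L, 5L and 6L. Thus 3 of the 4 KO lenses lay below every WT lens, and 4L lay inside the WT range. On the normalized log2 scale KO animals averaged 11.16 ± 0.45 and WT animals 11.65 ± 0.19 (SD, n = 3 each). The KO minus WT value was -0.49 (SE 0.25, limma unadjusted p = 0.0803, adjusted p = 0.99988), a KO over WT ratio of 0.714 with a 95% interval of 0.485 to 1.05. Leaving out KO animal 1 gave -0.27, and leaving out KO animal 4 gave -0.72 (limma unadjusted p = 0.0137, adjusted p = 0.9998).

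Aqp5, the water channel of epithelium and fibres, was measured by 1418818_at. It had signals of 2659.3, 2966.0, 3195.5 and 2095.6 in KO lenses 1L, 1R, 4L and 7L, against 3529.2, 2905.0 and 2971.8 in WT lenses 2L, 5L and 6L. Lenses 1L and 7L lay below every WT lens, and 1R and 4L lay inside the WT range. KO animals averaged 11.39 ± 0.32 and WT animals 11.62 ± 0.18 (normalized log2, SD, n = 3 each). The KO minus WT value was -0.23 (SE 0.22, limma adjusted p = 0.99988), and the 95% interval of the ratio was 0.607 to 1.20. It was -0.05 without KO animal 7 and -0.13 without WT animal 2, so it leaned on those animals.

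Mip, the fibre water channel, was measured by 2 bright probe sets, each above 99.3% of all probe sets in every lens. The brighter, 1421039_at, had signals of 24385.7, 22871.5, 27169.1 and 14535.4 in KO lenses 1L, 1R, 4L and 7L, against 18489.6, 28471.7 and 19425.8 in WT lenses 2L, 5L and 6L. Lens 7L was the lowest of all, and the other KO lenses lay inside the WT range. KO animals averaged 14.33 ± 0.31 and WT animals 14.46 ± 0.35 (normalized log2, SD, n = 3 each), a value of -0.13 (SE 0.24, limma adjusted p = 0.99988) with a ratio between 0.63 and 1.33 at 95%. The other Mip probe set, 1435447_at, had the opposite sign, 0.07 (SE 0.18), with a ratio between 0.798 and 1.38. The sign at the brighter probe set also turned when KO animal 7 (0.05) or WT animal 2 (0.0066) was left out. As deposited, 2L was the lowest WT lens at that probe set, but after normalization it was the highest of all lenses (14.73, log2).

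Lim2, the tetraspan protein of the fibres, had at 1438323_at signals of 23657.0, 24561.1, 25048.5 and 15704.0 in KO lenses 1L, 1R, 4L and 7L, against 18793.7, 25795.9 and 23139.7 in WT lenses 2L, 5L and 6L. As for Mip, 7L was the lowest and the other KO lenses lay inside the WT range. KO animals averaged 14.36 ± 0.21 and WT animals 14.50 ± 0.23 (normalized log2, SD, n = 3 each). The KO minus WT value was -0.14 (SE 0.20, limma adjusted p = 0.99988), with a ratio between 0.661 and 1.24 at 95%. It was -0.02 without WT animal 2 and -0.03 without KO animal 7. As deposited, 2L was the lowest WT lens for Lim2, but after normalization it was the highest of all lenses (14.74, log2).

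Gja3, the fibre connexin, had 2 probe sets of unequal brightness. The brighter, 1439793_at, had signals of 14162.3, 20168.5, 16513.1 and 16079.6 in KO lenses 1L, 1R, 4L and 7L, against 16258.7, 15658.0 and 17987.4 in WT lenses 2L, 5L and 6L. As deposited, the lowest and the highest of the 7 lenses were the left and right lens of KO animal 1; after normalization 1L was still the lowest, and WT lens 2L was the highest. The KO minus WT value was -0.07 (SE 0.22, limma adjusted p = 0.99988), with a ratio between 0.682 and 1.34 at 95%. The weaker probe set, 1422339_at, had signals of 597.7, 356.0, 407.0 and 702.1 in the KO lenses in the same order, against 710.9, 729.4 and 715.0 in the WT lenses. As deposited, the 4 KO lenses were below the 3 WT lenses, and after normalization 3 of them were, with 7L inside the WT range. KO animals averaged 9.03 ± 0.38 and WT animals 9.51 ± 0.10 (normalized log2, SD, n = 3 each), a value of -0.48 (SE 0.25, limma unadjusted p = 0.0882, adjusted p = 0.99988).

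Gja1, the epithelial connexin, had 6 probe sets, 4 of them bright. The brightest, 1437992_x_at, had signals of 21778.2, 24789.7, 27297.7 and 22163.4 in KO lenses 1L, 1R, 4L and 7L, against 16276.5, 26996.8 and 29295.8 in WT lenses 2L, 5L and 6L. As deposited, the WT lenses reached both below and above the KO lenses; after normalization it was the reverse, with 1L (14.36) below and 7L (14.63) above the WT lenses (14.46 to 14.60). After normalization KO animals averaged 14.55 ± 0.08 and WT animals 14.53 ± 0.07 (log2, SD, n = 3 each). The KO minus WT value was 0.02 (SE 0.17, limma adjusted p = 0.99988), with a ratio between 0.778 and 1.32 at 95%, and its sign turned under several settings. The 4 bright probe sets had values of -0.17 to 0.02, and the weak ones had -0.70 (1438973_x_at, SE 0.64) and -0.69 (1415801_at, SE 0.42). The last of these had signals of 14.4, 68.0, 80.6 and 38.2 in the KO lenses and of 55.2 or more in each WT lens. It fell short of the highest bacterial control signal, 45.5, in 1L and 7L, while the other 12 of the 13 probe sets exceeded it in all lenses. Probe sets named x_at hold probes that also match other sequences.

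**Figure D2:**
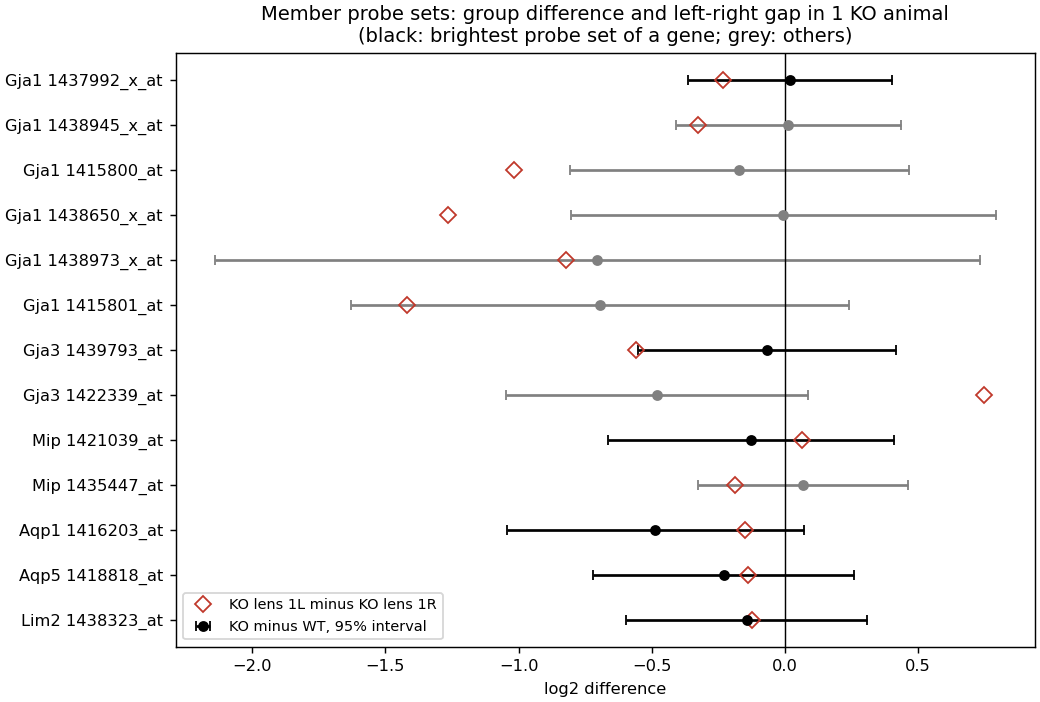
KO minus WT log2 difference with its 95% interval (filled circles, n = 3 animals each) and the difference between the left and right lens of KO animal 1 (open diamonds) at the 13 probe sets. Every interval includes 0, and the left-right gap is the larger of the pair at 9 of the 13, a count not computed over all probe sets.

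Lenses 1L and 1R came from the same animal. The size of the gap between them exceeded that of the KO minus WT value at 9 of the 13 probe sets, 2 of them the brightest of their gene. How often this held over all probe sets was not computed, so the count cannot be read as particular to these genes. For Gja1, 1L was below 1R at all 6 probe sets, by 0.23 to 1.42 on the log2 scale, and after normalization was the lowest of the 7 lenses at 5, but at 3 on the deposited signals. At 1438650_x_at, for example, the Gja1 signals were 4582.4 in 1L and 10935.8 in 1R. For Gja3 the gap, 1L minus 1R, was -0.56 at the brighter and 0.75 at the weaker probe set, which point opposite ways. Mip (0.06), Lim2 (-0.12), Aqp5 (-0.14) and Aqp1 (-0.15) had small gaps at their brightest probe sets. Of the other fibre markers, 17 were measured, and their mean deviation from the average animal was -0.44 in 1L and 0.30 in 1R. For the 14 other epithelium markers measured, it was -0.16 in 1L and 0.12 in 1R, a smaller gap. With a single animal giving both lenses, the gap has no test.

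**Figure D3:**
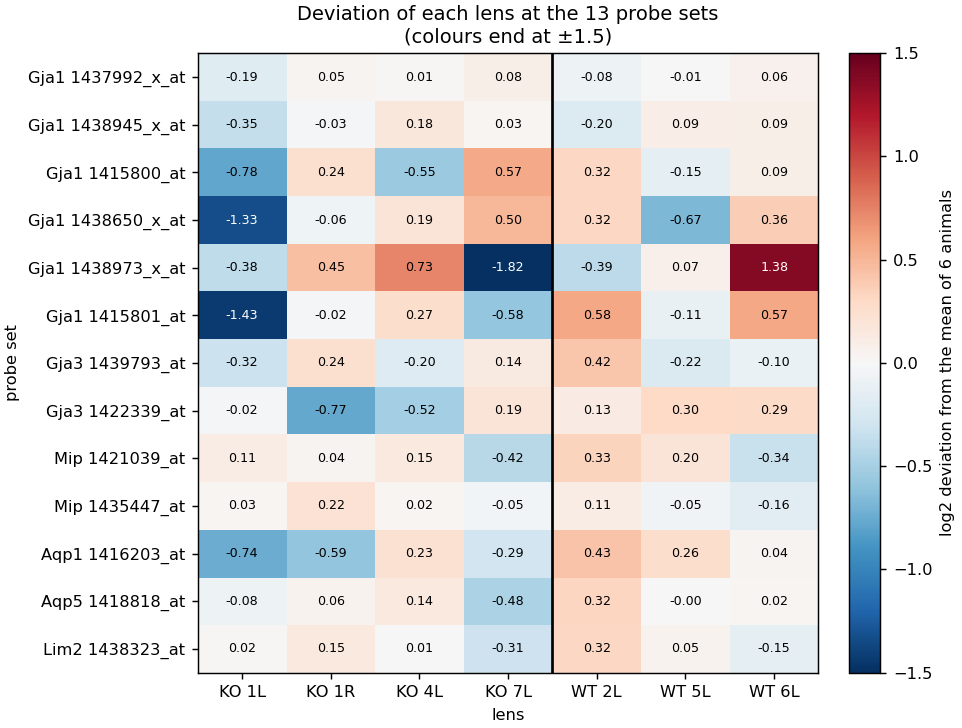
Deviation of each lens from the mean of the 6 animals (log2) at the 13 probe sets, with the 4 KO lenses left of the 3 WT lenses. Lens 1L is low at most Gja1 probe sets, 7L is the lowest for Mip, Aqp5 and Lim2 at their brightest probe sets, and 2L is the highest for 5 of the 6 genes.

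The 15 pairs of genes were compared over the 6 animals at their brightest probe sets. Mip and Lim2 had the highest positive correlation (Pearson r = 0.927, exact permutation p = 0.00694, adjusted 0.0521; Spearman rho = 0.83, exact permutation p = 0.0583, adjusted 0.219), which did not pass after adjustment over the 15 pairs. Aqp5 had r = 0.87 with Lim2 (exact permutation p = 0.0431, adjusted 0.154) and r = 0.786 with Mip (exact permutation p = 0.0375, adjusted 0.154), so high values were not limited to the fibre pair; the Aqp5 and Lim2 value was -0.138 without KO animal 7 and WT animal 2. For Mip and Lim2, r was 0.802 without the animals farthest from the median of Mip, KO animal 7 and WT animal 6, and on the deposited signals of all 6 it was 0.934. Gja1 and Lim2 ran opposite (r = -0.93, exact permutation p = 0.00417, adjusted 0.0521; rho = -1, exact permutation p = 0.00278, adjusted 0.0417), with r = -0.906 without KO animal 7 and WT animal 2. On the deposited signals the same pair had r = 0.623, so its sign depends on the scaling. Over the 7 lenses, with 1L and 1R apart, the normalized values of this pair had r = -0.50. The other Gja1 probe sets had r between -0.41 and 0.29 with Lim2 over the 7 lenses. The array of 2L was dimmer at the top, with a highest signal of 28328 against 42152.8 to 53055.7 on the others, and after quantile normalization 2L was the highest lens for 5 of the 6 genes.

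**Figure D4:**
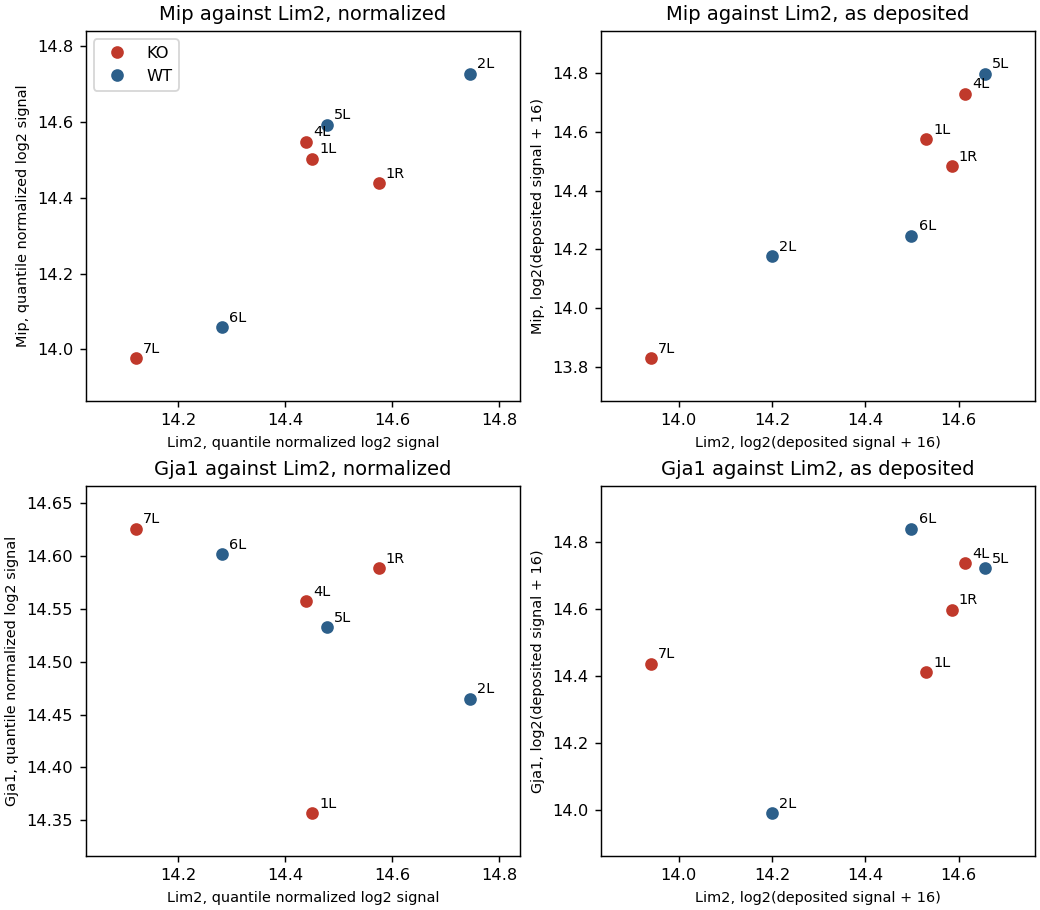
Mip (top) and Gja1 (bottom) against Lim2 in 4 KO and 3 WT lenses, as quantile normalized log2 signals (left) and as log2 of the deposited signal plus 16 (right). Mip follows Lim2 on both scales, while Gja1 runs against Lim2 after normalization and with it before.

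The genes most like each of the 6 over the 7 lenses are given as a description, since 1L and 1R share an animal and all genes share the arrays. They were Btf3 (Pearson r = 0.994), Abtb2 (0.986) and Notch1 (0.982) for Gja1. They were Spata7 (0.992), Tomm20 (0.990) and Sec62 (0.990) for Gja3, and Wrap53 (0.976), Rpl37a (0.972) and Slc38a4 (0.966) for Mip. For Aqp1 they were Naxd (0.984), Ctu2 (0.984) and Med8 (0.982), for Aqp5 Fzr1 (0.988), Amigo1 (0.980) and Ggact (0.977), and for Lim2 Rbm24 (0.975), Gcc1 (0.975) and Crls1 (0.974). Such values were common: 52 to 249 of 11706 genes had r above 0.9 with a given one of the 6.

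Of 18 other connexins listed, 12 were measured and 6 exceeded the bacterial control in at least 1 lens. With limma 0 of the 12 passed (0.0055% of all genes did), and 1 had an unadjusted p under 0.05 (4.07% of all genes, 2.24% higher in KO). Their median was 0.06, with a sign that turned under other settings (-0.08 to 0.11). Gje1, a connexin-like gene of the mouse lens, had signals of 473.6 to 1716.7 in the KO lenses, lowest in 1L, against 1026.9 to 1337.5 in the WT lenses. Gjc1 (Cx45) had 530.3 to 938.7 in the KO lenses, against 405.9 to 1080.3 in the WT lenses. Gjd2 (Cx36), a neuronal connexin, had 160.0 to 506.2 in the KO lenses, against 116.1 to 406.9 in the WT lenses. Gja4 (Cx37), known from vessel walls, had 62.8 to 86.7 in the KO lenses, against 80.8 to 151.0 in the WT lenses. In these 4 genes the groups overlapped. Gjb2 (Cx26) and Gjb6 (Cx30) were both highest in KO lens 7L. Gjb6 had 343.7 in 7L and at most 70.3 in the remaining KO lenses, against 46.4 to 56.8 in the WT lenses. Gjb2 had 345.3 in 7L and at most 174.9 in the remaining KO lenses, against 97.3 to 214.3 in the WT lenses. Gjc3 was the connexin with p under 0.05 (0.72, limma unadjusted p = 0.0197), but no lens exceeded the bacterial control. Of the 3 pannexins, which form related channels, 0 had p under 0.05, and Panx2 had the smallest p (0.65, limma unadjusted p = 0.143).

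All 9 other aquaporins listed were measured, and 8 exceeded the bacterial control in at least 1 lens. With limma 0 of 9 passed, and 2 had an unadjusted p under 0.05, both lower in KO (1.83% of all genes). Their median was -0.28. Aqp3, a channel for water and glycerol in surface epithelia such as the cornea, had signals of 250.1, 388.7, 164.6 and 40.0 in KO lenses 1L, 1R, 4L and 7L, against 341.7, 410.2 and 290.0 in WT lenses 2L, 5L and 6L. Lens 1R lay inside the WT range and 7L was far below all others. The KO minus WT value of Aqp3 was -1.30 (SE 0.56, limma unadjusted p = 0.0435, adjusted p = 0.99988) and -0.58 without KO animal 7. Its other 3 probe sets, below the bacterial control in every lens, had -1.02, 0.14 and 0.11. Aqp9, a channel for water and small solutes, had signals of 82.1, 54.2, 48.5 and 18.9 in the same KO lenses, against 74.7, 116.5 and 84.7 in the WT lenses. As deposited, 1L lay inside the WT range, and after normalization all 4 KO lenses were below the 3 WT lenses, 1L by little (6.57 against 6.59 in 2L, log2). Aqp9 had a KO minus WT value of -0.99 (SE 0.42, limma unadjusted p = 0.0405, adjusted p = 0.99988). The weaker Aqp9 probe set, below the bacterial control in every lens, had -0.34. Aqp4, the water channel of glia, had 992.2 to 2202.7 in the KO lenses, against 1215.8 to 1545.1 in the WT lenses, with 1R and 7L above every WT lens. Aqp11 had 46.1 to 102.0 in the KO lenses, against 60.0 to 114.0 in the WT lenses. Aqp8 and Aqp6 also overlapped between the groups, with values of -0.28 and 0.24. Aqp2 and Aqp12 exceeded the bacterial control in 3 and 1 of the 7 lenses.

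**Figure D5:**
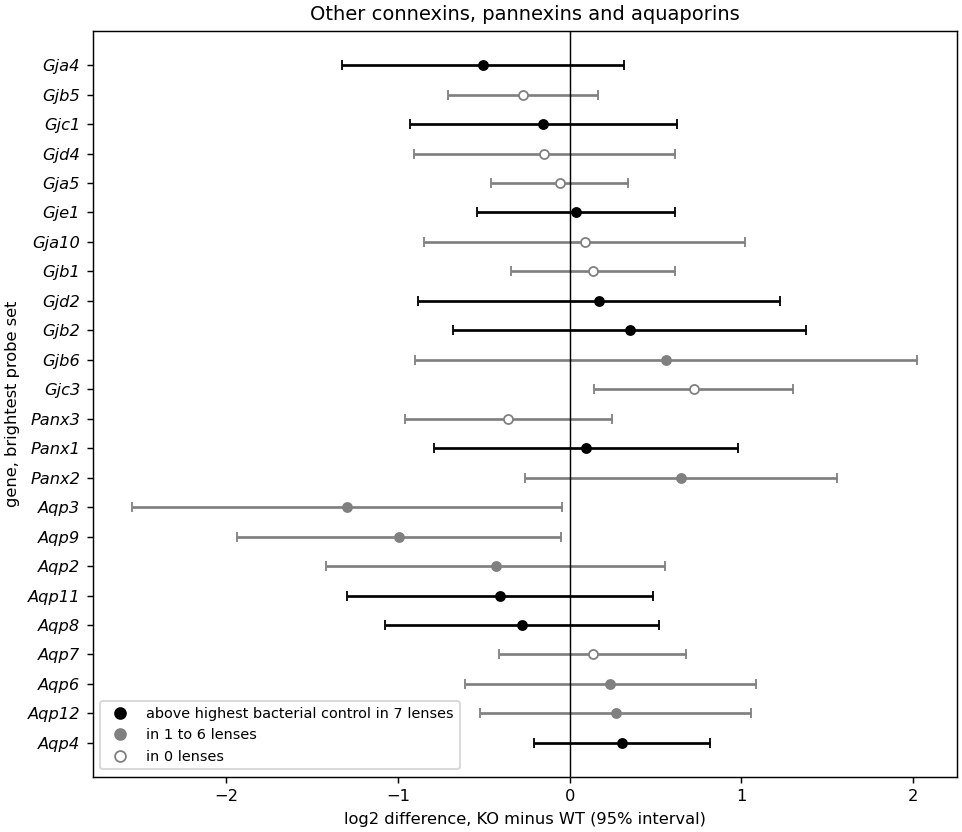
KO minus WT log2 difference with its 95% interval (n = 3 animals each) for 12 other connexins, 3 pannexins and 9 other aquaporins at their brightest probe sets. The intervals of Gjc3, Aqp3 and Aqp9 leave out 0, and none of these genes passed after adjustment.

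Genes that act with the channels were counted the same way. Over all genes, 54.4% were lower in KO, and 4.07% had a limma unadjusted p under 0.05. The lists were not tested as sets against these shares. Of 18 measured junction and channel partners, 8 were higher and 10 lower in KO with 0 at an unadjusted p under 0.05, and their median was -0.03. The smallest p was that of Dbn1, drebrin, an actin-binding partner of Gja1 (-0.56, limma unadjusted p = 0.137). Of 5 relatives of Lim2, 0 had p under 0.05, and the smallest was that of Emp1 (-1.08, SE 0.60, limma unadjusted p = 0.103). Of 20 measured fibre markers, which include Mip, Lim2 and Gja3, 15 were lower in KO, their median was -0.10 (-0.16 to -0.02 under other settings), and 1 had p under 0.05. This was Dnase2b, the nuclease that clears fibre DNA (-0.83, limma unadjusted p = 7.14e-04, adjusted p = 0.918), with signals of 1337.6, 5671.3, 3100.4 and 2809.5 in KO lenses 1L, 1R, 4L and 7L, against 4835.0, 5355.5 and 5384.2 in the WT lenses. Lens 1R exceeded every WT lens. Of 16 measured epithelium markers, which include Gja1 and Aqp1, 11 were lower in KO, their median was -0.09 (-0.20 to -0.0041) and 0 had p under 0.05. The nearest was Foxe3, a transcription factor that defines lens epithelium (-1.02, limma unadjusted p = 0.0507), which exceeded the bacterial control in 1 KO and 2 WT lenses, while 15 of the 16 exceeded it in all 7.

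Markers of other eye tissues were present. Their counts stand beside 54.4% of all genes lower in KO. With a limma unadjusted p under 0.05, 1.83% of all genes were lower and 2.24% higher. No list was tested as a set. All 15 measured photoreceptor markers, all 12 of Muller glia and astrocytes and all 20 fibre markers exceeded the bacterial control in all 7 lenses. The share over all genes was not computed, so these counts cannot say whether the captured material was epithelium alone. Which cells gave these signals was not tested. Corneal and surface epithelium markers were lower in KO at 16 of 18 genes (median -0.61, and -0.24 without KO animal 7). Their summed signal was 15493.4 to 30847.4 in the KO lenses, against 21722.3 to 31960.8 in the WT lenses, 13 of 18 exceeded the bacterial control in all lenses, and 10 of 18 were lowest in 7L after normalization. Those with an unadjusted p under 0.05 were Upk1b (-1.37) and Krt5 (-1.66). Krt12, the keratin that defines corneal epithelium, had a signal of 530.0 in 7L and at least 4671.2 in the remaining KO lenses, against 3447.4 to 11505.1 in the WT lenses. Glial markers were higher in KO at 9 of 12 genes, or 8 of 11 without Aqp4, which is on that list, led by Gfap (1.47), Slc1a3 (1.16) and Glul (0.69). Their summed signal was 86194.2 to 98159.8 in the KO lenses, against 73909.7 to 97923.0 in the WT lenses. The brightest on the list were Aldoc (0.02), Vim (-0.19) and Dkk3 (-0.13), so the sum mostly reflects genes that differed little. The lowest WT sum was that of 2L, whose array was dimmer at the top. Photoreceptor markers were lower at 13 of 15, led by Pde6g (-0.64), Opn1sw (-1.13) and Opn1mw (-0.77). Macrophage markers were higher at 12 of 15, with C1qa (1.61) and Csf1r (1.05) higher and Aif1 (-0.80, at no lens above the control) lower, and summed to 2507.9 to 3840.4 in the KO lenses, against 1576.2 to 2384.6 in the WT lenses. Blood and endothelium markers were higher at 11 of 13, led by Alas2 (1.42) and Slc4a1 (1.48). Pigment cell markers were higher at 8 of 12, with Mlana (0.92) and Rlbp1 (0.47) higher and Rpe65 (-1.13) lower. Rlbp1 is also on the glial list and was counted there too. Ciliary and zonule markers were higher at 6 of 9, with Zic1 nearest (0.99). None of these passed after adjustment with limma, and their part in the values of the 6 genes was not tested. The Gapdh signal at the 3' end was 3.75 times that at the 5' end in 2L and 9.06 to 15.9 times in the other lenses, and between KO and WT animals the log2 ratio differed by 0.49 (exact permutation p = 0.6, two-sided, where the smallest possible is 0.1).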

How the data were processed

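The data are 7 arrays, 1 per lens. Per the labels' protocols, epithelial cells were laser-captured from stained cryosections, and their RNA went through a pair of amplification cycles with biotin labelling. The authors deposited linear intensity values, 1 signal per probe set, with an equal mean on every array once 2% was trimmed from each end. No source used here names the summary software. Precision is limited by how many arrays there are.

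Of 45101 probe sets, 64 controls were removed. Signals became log2(signal + 16), which understates differences of weak probe sets, and were quantile normalized. Limma 3.58.1 in R 4.3.3 (lmFit, eBayes with trend, two-sided) set KO against WT animals, and p-values were adjusted by Benjamini-Hochberg across the 45037 remaining probe sets (threshold 0.05). The code was tested on simulated data. Background was gauged by the highest of 27 bacterial control signals. Nothing in the labels says how separately the animals' samples were handled, so p-values measure the spread between these animals. Lists and single genes outside the 6 use the brightest probe set.

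Symbols came from the platform annotation, updated through RefSeq gene numbers: 34945 probe sets had 1 symbol, 932 several and 9160 none. Genes named were Sparc, the 6 genes, other connexins and aquaporins above background in any lens, the 3 genes most like each of the 6, and from each list up to 3 with an unadjusted p under 0.05, or the one of smallest p. Krt12 was added after its values were seen. The 6 genes and the lists were chosen with earlier results of these data known. Alternatives were each lens as a sample, either lens of KO animal 1 by itself, median centring, no further normalization, a filter on low values, no trend, array weights, pseudocounts of 1 and 64, a threshold of 0.1, the mean of a gene's probe sets, and leaving out each animal.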

Additional observations from a re-analysis of the deposited data

How the results depend on the processing

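Under 17 alternatives 0 of the 13 probe sets passed the adjusted threshold with limma, and over all probe sets 2 or 3 did. Aqp1, Aqp5 and Lim2 stayed lower in KO in all 17, at adjusted p of 0.672 or more. Gja1, Gja3 and Mip changed sign in 7, 3 and 2 of the 17, and the cause was not tested. Gja1 was -0.0012 with each lens as a sample, -0.02 with lens 1L alone for KO animal 1, -0.051 with median centring, -0.023 with array weights and -0.26 with the mean of its probe sets. Gja3 was 0.026 with lens 1R alone. Leaving out 1 animal at a time gave -0.018 to 0.058 for Gja1, -0.195 to 0.125 for Gja3, -0.328 to 0.05 for Mip, -0.72 to -0.27 for Aqp1, -0.36 to -0.05 for Aqp5 and -0.25 to -0.02 for Lim2. Added after the data were seen, Aqp3 (-1.85 to -0.58), Aqp9 (-1.29 to -0.60) and the weaker Gja3 probe set (-0.69 to -0.34) kept their sign in 16 alternatives. No paired analysis was possible because KO and WT lenses share no replicate number. With 3 animals a group, differences inside the intervals given could not be resolved.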
